A study of Mus musculus with 8 samples.

Results

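The transcripts of 10 enzymes that build purine and pyrimidine nucleotides de novo were followed in mouse RNA-seq libraries made with and without tranilast, an anti-allergic drug. The enzymes are Ppat, Gart, Pfas, Paics, Adsl, Atic and Impdh2 on the purine side and Cad, Umps and Ctps on the pyrimidine side. They were taken by gene symbol from the 22063 genes of the deposited table, and all 10 had enough counts to be tested.

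Cells obtain nucleotides either by building them from small precursors or by salvaging free bases and nucleosides. The purine route assembles the ring on an activated ribose (phosphoribosyl pyrophosphate, PRPP) and ends at inosine monophosphate, from which adenine and guanine nucleotides branch off. The pyrimidine route first makes the ring, then joins it to PRPP, and ends at the uridine and cytidine nucleotides. Both routes draw on glutamine and aspartate, and the purine route also on folate-bound formyl groups. The liver is known as a major site of purine synthesis, and dividing cells raise both routes to supply RNA and DNA synthesis.

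The series holds 8 libraries from wild-type mice labelled as liver: 4 controls and 4 whose titles add tranilast. The labels name neither age, sex, strain nor diet. The series design describes a high-fat, high-cholesterol (HFHC) diet in both groups, and the study's methods describe male C57BL/6J mice that received tranilast by mouth, or its vehicle, sodium carboxymethylcellulose. The dose given to the sequenced mice was not given in the sources used here, nor was it stated that each library came from a separate mouse, so p-values measure the spread between these libraries. Library totals ran from 14585143 to 15618789 counts for the controls and from 12053036 to 14679384 counts with tranilast. A count of 0 allows up to 3 counts, or between 0.192 and 0.249 CPM (counts scaled by the total of the library), and this limit covers counting error only.

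Markers of the labelled tissue were nearly absent. The 9 hepatocyte markers together held at most 0.000149% of the counts of any library, their most abundant gene, Ttr, had between 0 and 17 counts, and Cps1, Tat, Hnf4a, Asgr1 and Serpina1a had 0 counts in all libraries. The 1 hepatocyte marker with enough counts to be tested was not called. Macrophage markers, 13 in number, summed to 0.941% to 0.995% of each control library and 0.912% to 0.972% of each tranilast library, led by Lyz2 with between 51267 and 68975 counts. Of the 13, Mrc1, C1qa, C1qb, C1qc and Mertk had between 0 and 11 counts per library and were not tested. Of the 8 macrophage markers tested, 6 were lower and 2 higher with tranilast when libraries were scaled by TMM (described below), and 3 were lower and 2 higher with library size alone. Over all tested genes, 28.8% were called lower and 28.2% higher with TMM, and 17.6% and 42.8% with library size alone. Among the 5 markers of Kupffer cells, the resident macrophages of the liver, Clec4f, Vsig4 and Timd4 had 0 counts, and the list held at most 5.89e-05% of the counts. Lists for T cells, B cells, neutrophils, endothelial cells, stellate cells or fibroblasts, cholangiocytes and erythroid cells each held at most 0.00024% of the counts of a library. The libraries are therefore called here only by their treatment labels.

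A list of 15 proliferation genes summed to 0.597% to 0.624% of each control library and to 0.461% to 0.473% of each tranilast library. Its most abundant gene by counts was Mki67, with between 10428 and 24045 counts. The part of this difference in the values of the nucleotide enzymes was not tested. In bulk RNA, fewer cells of a type and less RNA per cell cannot be told apart.

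Promoter sequences from RefSeq (build GRCm38.p6), covering 250 bases before to 50 bases after each start, were at hand for 9 of the enzymes, and there was none for Pfas. They were searched for CACGTG, the E-box letters that Myc and Max bind and which read the same on both strands, and for CCGGAA or its reverse complement TTCCGG, the core letters of many ETS family sites. CACGTG was found in the windows of Atic, Paics and Impdh2, or 3 of 9, against 8.09% of all 27025 genes with a window. CCGGAA was found in Ppat, Gart, Umps and Ctps, or 4 of 9, against 16.7% of those genes. The windows of Adsl and Cad held neither. The matches are shown here because the enzymes with CACGTG include the one with the lowest fold change and the only one called higher with TMM. Impdh2, which also has CACGTG, was called lower with TMM. With library size alone Ppat, Umps and Ctps, which have CCGGAA, were also called higher. Gart, the remaining enzyme with CCGGAA, was called lower with TMM and was not called with library size alone. A link between these letters and the direction of change was not tested. Each sequence is read 5′ to 3′ on the strand of the gene, with the matching letters in capitals.
Atic upstream, chr1:71556906-71557155, plus strand: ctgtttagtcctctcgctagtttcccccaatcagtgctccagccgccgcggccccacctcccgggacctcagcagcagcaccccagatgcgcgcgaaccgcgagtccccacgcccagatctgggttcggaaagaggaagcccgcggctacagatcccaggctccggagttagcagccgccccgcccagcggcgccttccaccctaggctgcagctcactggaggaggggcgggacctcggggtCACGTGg
Paics, chr5:76951087-76951116, plus strand: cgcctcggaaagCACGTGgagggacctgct
Impdh2, chr9:108560314-108560343, plus strand: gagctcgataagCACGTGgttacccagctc
Ppat, chr5:76951577-76951606, minus strand: acgcgaccccgcTTCCGGgcggcccctccc
Gart, chr16:91646923-91646952, minus strand: ttccccgggccaacTTCCGGcgggtgcgag
Umps, chr16:33967053-33967082, minus strand: ccgcggcccgggCCGGAAaggggggcggaa
Ctps, chr4:120570442-120570471, minus strand: aggccctcagggTTCCGGttagatgcgagt

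In the GENCODE M21 annotation of GRCm38, the Atic match reaches into the first exon of Atic, which starts at chr1:71557150-71557274, and the Impdh2 match lies in an annotated first exon of Impdh2. The Paics match lies in the untranslated part of the first exon of Ppat on the opposite strand, and the Ppat match lies before the start of Ppat, inside a first exon of Paics. The Gart match lies in a first exon of Gart, and the Umps match in an exon of Gm15829 on the opposite strand. Ppat (chr5:76913249-76951578) and Paics (chr5:76951307-76967509) point away from each other with starts 271 bases apart and overlap over 272 bases. Their counts were not whole numbers in 6 of 8 libraries for each gene, against 2 of 8 for Pfas, 1 of 8 for Adsl and 0 of 8 for the other enzymes. How the authors' counting shared reads between overlapping genes, and whether it used strand, was not given in the sources used here, so the values of Ppat and Paics are uncertain to that extent. Gart (chr16:91621186-91646952) starts 554 bases from Son, which encodes an RNA splicing protein. Son also fell with tranilast when scaled by TMM, with a log2 fold change of -0.15 ± 0.029 (SE). Its value under other scalings is not given here. The remaining enzymes had no protein-coding neighbour start within 1000 bases, a distance chosen after seeing the data, and the 10 genes lie on 7 chromosomes.

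Libraries were compared in CPM scaled by TMM, a method that centres most genes between libraries, and a gene was called when its adjusted p in edgeR's quasi-likelihood test was under 0.05. With tranilast, 5 of the 10 enzymes fell (Gart, Pfas, Atic, Impdh2 and Cad) and 1, Paics, rose, although Gart and Cad turned above 0 with library size alone and with FPKM, and the call of Impdh2 was lost there. Atic and Pfas fell furthest, with changes of -25.8% and -20.7%, followed by Impdh2 with -10.3%. With GC and length trends removed, Cad lay below Impdh2, at -0.19 and -0.15 from the median log2 fold change of all tested genes. Over all 10770 tested genes, 57% were called, 28.8% lower and 28.2% higher. The CPM of the groups did not overlap in 4 of the 10 enzymes, against 49.8% of the tested genes. The median log2 fold change was -0.06 for the enzymes and 0.01 for all tested genes. Calls were therefore common throughout the table, and the enzymes are described by their sizes and order.

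**Figure D1:**
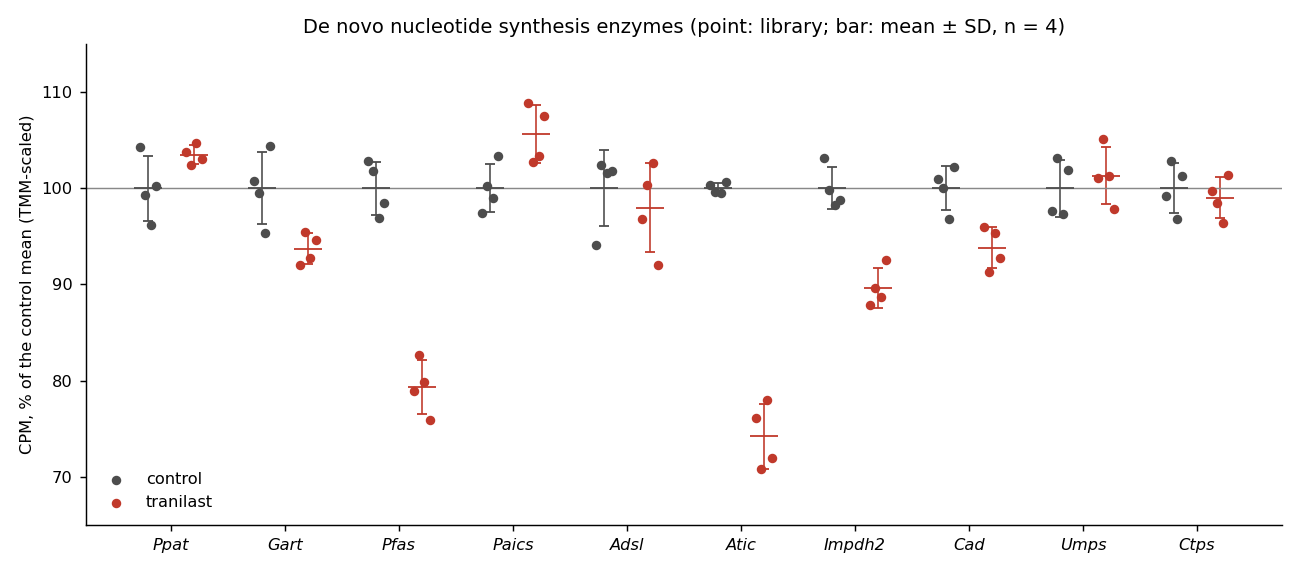
CPM of each enzyme in each library as a percent of its control mean, with points for libraries and bars for the mean ± SD of 4 libraries per group. The tranilast libraries lie between 70.8% and 78.0% for Atic and between 75.9% and 82.7% for Pfas, below every control library, and the groups of Umps and Ctps overlap.

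Ppat, which commits PRPP to the purine route, had 107.5, 102.3, 99.1 and 103.3 CPM in control replicates 1 to 4 and 106.9, 105.5, 107.9 and 106.2 CPM in the tranilast libraries. The groups overlapped through control replicate 1. Its log2 fold change was 0.05 (95% interval -0.03 to 0.13, adjusted p = 0.278). Gart, a protein with 3 catalytic activities of the early and middle steps, had 216, 214, 205 and 224 CPM in the control libraries and 198, 205, 199 and 203 CPM in the tranilast libraries. The lowest control and the highest tranilast library of Gart met at 205 CPM. Its log2 fold change was -0.09 ± 0.033 (SE, adjusted p = 0.0237). The call was lost without control replicate 4 (adjusted p = 0.0903), tranilast replicate 1 (0.0745) or tranilast replicate 3 (0.0601), and the adjusted p ranged from 0.00800 to 0.918 over all alternatives.

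Pfas, which transfers an amino group from glutamine in the middle of the purine route, had 199.9, 197.9, 188 and 191 CPM in the control libraries and 153, 161, 155 and 147 CPM in the tranilast libraries. Every tranilast library was lower than every control library. The log2 fold change was -0.33 ± 0.035 (SE, adjusted p = 2.54e-07), and an exact permutation test gave p = 0.0286, the smallest that 4 libraries against 4 can give. Pfas (chr11:68985697-69008460) was called lower under all 18 alternative fits.

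Paics, which carries out a carboxylation and the joining of aspartate that follows it, had 291, 299, 295 and 308 CPM in the control libraries and 325, 307, 309 and 321 CPM in the tranilast libraries. Control replicate 4 lay above tranilast replicate 2, so the groups overlapped. Its log2 fold change was 0.08 ± 0.030 (SE, adjusted p = 0.0327), and the exact permutation test gave p = 0.0571. The call was lost without control replicate 1 (adjusted p = 0.0958), control replicate 3 (0.0772), tranilast replicate 1 (0.0955) or tranilast replicate 4 (0.0652), and with no filter on low counts (0.0546). The adjusted p ranged from 1.99e-05 to 0.0958 over all alternatives, and the log2 fold change lay above 0 in each, between 0.05 and 0.21.

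Adsl, which releases fumarate in the purine route and again on the way to adenosine monophosphate, ranged from 109.7 to 119.4 CPM in the control libraries and from 107.2 to 119.6 CPM in the tranilast libraries. Control replicate 1 stood below the other controls. The log2 fold change was -0.03 (95% interval -0.12 to 0.06, adjusted p = 0.560).

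Atic, a protein with both the formyl transfer and the ring closure that complete inosine monophosphate, had 247.9, 246.0, 245.8 and 248.6 CPM in the control libraries and 188, 175, 193 and 178 CPM in the tranilast libraries. The control libraries of Atic were close to each other (SD 1.39 CPM), and the tranilast libraries were spread more widely (SD 8.32 CPM) but all below them. The log2 fold change was -0.43 ± 0.034 (SE, adjusted p = 5.26e-09, exact permutation p = 0.0286). In absolute size it exceeded 78.1% of the tested genes. Atic was called lower under all 18 alternative fits.

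Impdh2, the isoform of inosine monophosphate dehydrogenase that proliferating cells use and the committed enzyme of guanine nucleotide synthesis, had 278.5, 269.7, 265.6 and 266.8 CPM in the control libraries and 237.2, 242.0, 239.5 and 249.9 CPM in the tranilast libraries. The groups did not overlap. The log2 fold change was -0.16 ± 0.030 (SE, adjusted p = 0.000223, exact permutation p = 0.0286). The call was lost with library size alone (-0.04, adjusted p = 0.265) and with FPKM + 0.1 (-0.04, adjusted p = 0.319) or FPKM + 1 (adjusted p = 0.315). Impdh2 has a close paralog, Impdh1, and how the counting treated reads that paralogs share was not given in the sources used here. The counts of both genes were whole numbers in every library.

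Cad, the protein with the opening activities of the pyrimidine route, had 422, 418, 405 and 427 CPM in the control libraries and 401, 382, 398 and 388 CPM in the tranilast libraries. The groups did not overlap, with the highest tranilast library at 401 CPM and the lowest control library at 405 CPM. The log2 fold change was -0.09 ± 0.028 (SE, adjusted p = 0.00891). The call was lost with upper-quartile factors (-0.02, adjusted p = 0.457) and library size alone (0.02, adjusted p = 0.456). With GC and length trends removed, the log2 fold change of Cad was -0.20, the lowest over all alternatives. Umps, which joins the pyrimidine ring to PRPP and then makes uridine monophosphate, ranged from 98.9 to 104.8 CPM in the control and from 99.4 to 106.8 CPM in the tranilast libraries, with a log2 fold change of 0.02 (95% interval -0.06 to 0.10). Ctps, which makes cytidine triphosphate from uridine triphosphate, ranged from 152.5 to 162.0 and from 151.9 to 159.9 CPM, with a log2 fold change of -0.01 (95% interval -0.08 to 0.06). Neither Umps nor Ctps passed the test (adjusted p = 0.711 and 0.746).

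The direction of the smaller changes depended on how libraries were scaled. The median log2 fold change of all tested genes was 0.01 with TMM, 0.08 with upper-quartile factors and 0.12 with library size alone. Of the called genes, 49.5% were higher with TMM and 70.9% with library size alone. With library size alone, 60.4% of the tested genes were called, 17.6% lower and 42.8% higher. On that scale 2 of the 10 enzymes were lower, Atic at -0.31 and Pfas at -0.22, and 4 were higher, Paics at 0.20, Ppat at 0.17, Umps at 0.13 and Ctps at 0.10. Impdh2 was then at -0.04, and Gart and Cad turned to 0.02 each, and none of these passed the test. A change of scaling factors shifts all genes of a library alike, so values measured from the median of all tested genes agree between TMM, upper-quartile factors and library size by construction, and their agreement is no test of stability. Measured in this way, Atic lay at -0.44, Pfas at -0.34, Impdh2 at -0.17, Gart and Cad at -0.10 each, Adsl at -0.04, Ctps at -0.02, Umps at 0.01, Ppat at 0.04 and Paics at 0.07. This way of expressing the values was chosen after seeing the data.

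**Figure D2:**
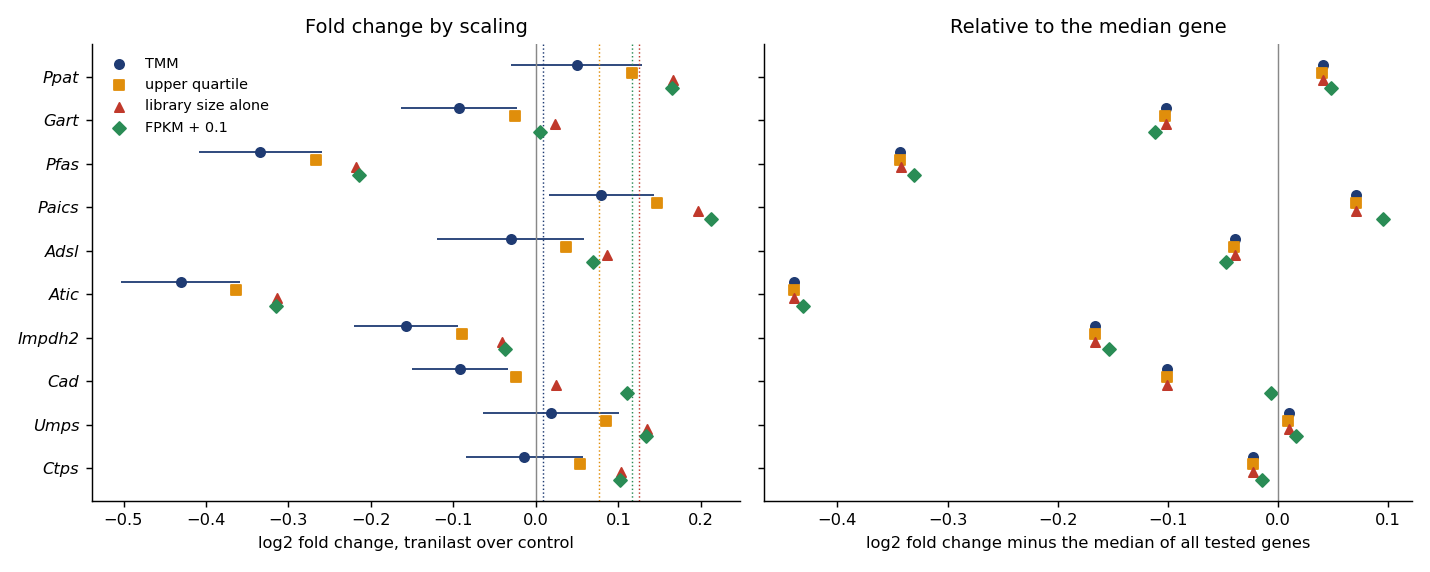
Log2 fold change of each enzyme, tranilast over control, under 4 scalings (left; lines give the 95% interval with TMM, dotted lines the median of all tested genes) and the same values minus that median (right). Atic and Pfas lie below 0 under each scaling, at -0.31 and -0.22 with library size alone, whereas Gart, Adsl, Cad and Ctps change sign between scalings; minus the median, the scalings of counts coincide by construction, and with FPKM Cad lies at -0.01 against -0.10 with TMM.

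The summed counts of the 10 enzymes made up 0.204% ± 0.00359 (SD, n = 4) of the library total in the control and 0.205% ± 0.000612 (SD, n = 4) in the tranilast libraries, and these ranges overlapped. Scaled by TMM, the sum was 2121 ± 33.5 CPM (SD, n = 4) in the control and 1968 ± 12.5 CPM (SD, n = 4) in the tranilast libraries, with no overlap, so its difference depends on the scaling. The share of each enzyme within the sum does not depend on it. Atic made up 11.6% ± 0.146 (SD, n = 4) of the enzymes' counts in the control and 9.31% ± 0.370 (SD, n = 4) in the tranilast libraries, and Pfas 9.16% ± 0.22 and 7.84% ± 0.291. The share of Paics went from 14.1% ± 0.298 to 16.02% ± 0.427, and Ppat from 4.86% ± 0.131 to 5.42% ± 0.0308. The shares of Umps and Ctps were also higher in every tranilast library, at 5.23% against 4.79% and 7.93% against 7.43%. Gart, Adsl, Impdh2 and Cad had overlapping shares, with Cad the largest at 19.7% and 19.9%. A larger share of an enzyme here is a share relative to the others, since the shares add up to the whole, and these sums were chosen after seeing the data and not tested.

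Levels between genes were compared in the deposited FPKM, which scales reads by transcript length and depth. The lengths that the authors used are not known, and the order of the enzymes rests on them. Impdh2 was the most abundant enzyme in the control libraries at 140.0 ± 3.27 FPKM (SD, n = 4), followed by Paics at 137 ± 4.49 FPKM, and their ranges overlapped. Atic at 83.4 FPKM, Gart at 76.7, Adsl at 68.6, Cad at 58.7 and Ctps at 55.9 followed, with no overlap between neighbours in this order. Pfas at 29.3 and Umps at 28.0 FPKM overlapped, and Ppat, the entry enzyme of the purine route, was the least abundant at 24.9 ± 0.916 FPKM. In the tranilast libraries Paics led at 158 ± 5.50 FPKM, above Impdh2 at 136 ± 3.80 FPKM in every library. Atic, at 67.1 ± 2.85 FPKM, was then below Gart at 77.0 FPKM, and its range overlapped those of Adsl at 72.0 and Cad at 63.4 FPKM. Pfas, at 25.3 ± 0.914 FPKM, took the last place from Ppat, at 27.9 ± 0.203 FPKM, with no overlap. Cad differed between FPKM and TMM-scaled CPM. Its FPKM was higher in every tranilast library (60.1 to 65.3) than in the control libraries (58.4 to 59.0). The log2 fold change was 0.11 on FPKM + 0.1 (adjusted p = 0.0205 by limma, and 0.0198 on FPKM + 1). Its TMM-scaled CPM was lower in every tranilast library. With counts scaled by library size alone, its log2 fold change was 0.02 (adjusted p = 0.456 in edgeR), so both scaling and unit differ in this comparison. The cause of this disagreement was not tested.

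**Figure D3:**
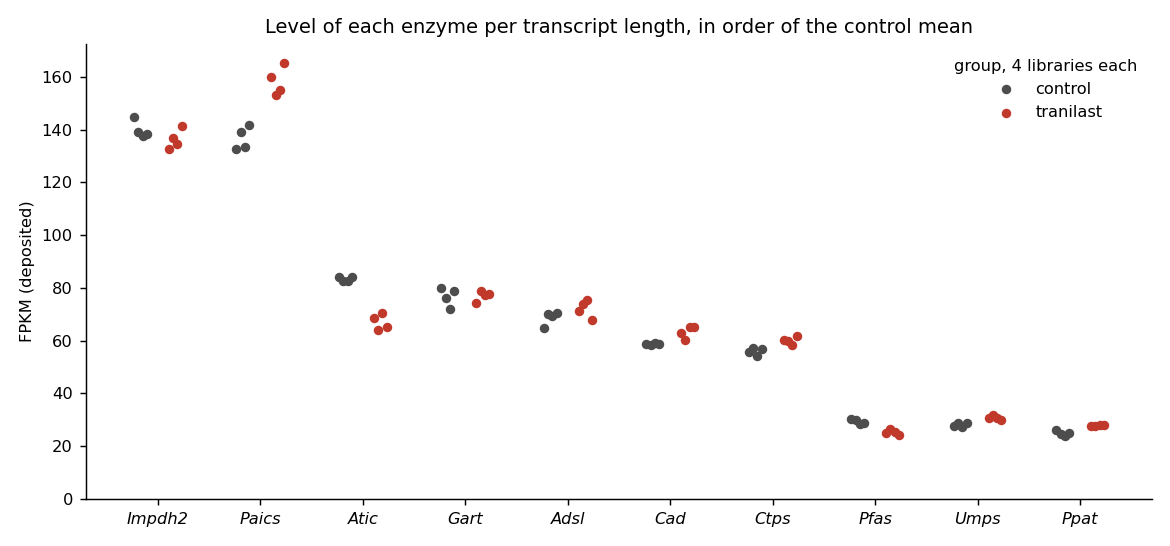
Deposited FPKM of each enzyme in each library, ordered by the control mean, with 4 libraries per group. Paics lies between 153 and 165 FPKM in the tranilast libraries, above all libraries of Impdh2; Pfas lies between 24.3 and 26.5 FPKM in the tranilast libraries, below those of Ppat in the same group.

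Ratios of counts between enzymes of neighbouring or parallel steps were compared within libraries for 5 pairs. The ratio of Impdh2 to its paralog Impdh1, which resting cells use, was 2.80, 3.02, 2.70 and 2.81 in the control libraries and 2.08, 2.08, 2.01 and 2.19 in the tranilast libraries. Every tranilast library was lower, and the log2 ratio moved by -0.44, from 1.502 ± 0.069 (SD, n = 4) to 1.06 ± 0.051 (SD, n = 4). The exact permutation test gave p = 0.0286, the smallest possible, which was 0.143 after Benjamini-Hochberg adjustment over the 5 pairs and did not pass. A pair that alone reached the smallest possible p could not pass this adjustment, so the adjusted value decides nothing about this ratio. Across the alternatives in which a library was left out, the difference lay between -0.46 and -0.41.

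The other ratios overlapped between the groups. The log2 ratio of Ppat to Paics, the divergent pair, was -1.53 ± 0.067 in the control and -1.56 ± 0.043 in the tranilast libraries (SD, n = 4, exact permutation p = 0.571, adjusted 0.952). That of Ctps to its paralog Ctps2 was 2.35 ± 0.153 and 2.34 ± 0.026 (SD, n = 4, exact permutation p = 0.857, adjusted 1). The log2 ratio of Cad to Dhodh, the mitochondrial enzyme between Cad and Umps in the route, was 4.36 ± 0.140 and 4.28 ± 0.125 (SD, n = 4, exact permutation p = 0.371, adjusted 0.929). Impdh2 and Adss, which open the guanine and adenine branches from inosine monophosphate, kept a log2 ratio of 0.50 ± 0.097 and 0.50 ± 0.056 (SD, n = 4, exact permutation p = 1).

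**Figure D4:**
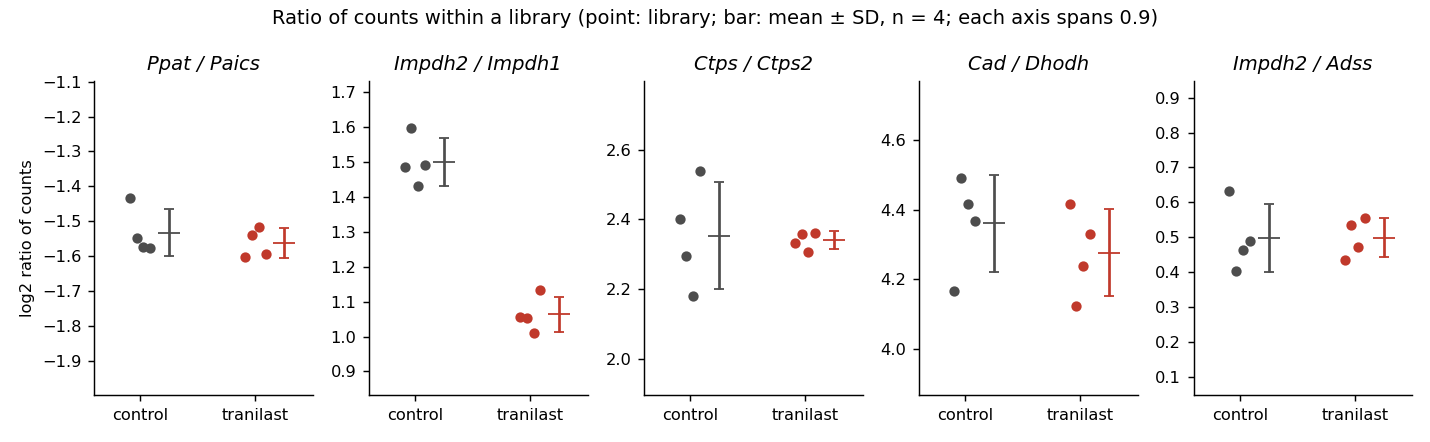
Log2 ratio of counts within each library for 5 pairs of enzymes, with points for libraries and bars for the mean ± SD of 4 libraries per group; every axis spans the same range. The ratio of Impdh2 to Impdh1 lies from 1.43 to 1.597 in the control libraries and from 1.01 to 1.13 with tranilast, and the groups of the other pairs overlap.

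The counts of called genes in the lists that follow stand against 28.8% lower and 28.2% higher over all tested genes with TMM, and 17.6% lower and 42.8% higher with library size alone. No list was tested as a set. Of 6 further enzymes of the de novo routes, 2 were lower and 1 was higher with tranilast, and 0 lower and 1 higher with library size alone. Impdh1 rose, with a log2 fold change of 0.28 ± 0.041 (SE), from 95.4 CPM in the control to 115.9 CPM in the tranilast libraries. Gmps, which completes guanosine monophosphate, and Adss, the most abundant of the list at 65.4 FPKM, fell by 0.16 each on the log2 scale (SE 0.041 and 0.038), and neither call held with library size alone or FPKM. Adssl1, Dhodh and Ctps2 did not pass the test, with log2 fold changes of -0.01 each. The 95% intervals were -0.12 to 0.10 for Adssl1, -0.20 to 0.17 for Dhodh and -0.15 to 0.14 for Ctps2.

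The supply routes had members moving both ways. Among 5 tested genes of PRPP supply, Prps1, a PRPP synthetase, fell (log2 fold change -0.31 ± 0.046, SE). Prpsap2, a protein associated with the synthetase, rose (0.24 ± 0.049, SE). Prps1l3 was at 0.08 ± 0.049 (SE) and did not pass with TMM. It was called higher in 4 alternatives, and its adjusted p ranged from 0.00274 to 0.526 over all alternatives. The FPKM of Prps1 and Prps1l3 were 40.7 and 35.7 in the control and 35.6 and 40.8 in the tranilast libraries. Counts of both genes were not whole in control replicate 3 (1216.54 and 998.46) and tranilast replicate 3 (787.43 and 914.53). Whether the authors' counting divided reads between them was not given in the sources used here, so their separate values are uncertain to that extent. With library size alone, 1 gene of PRPP supply was lower and 3 were higher. In the pentose phosphate route, which makes the ribose, 2 of 8 genes fell and 2 rose with TMM, against 1 lower and 5 higher with library size alone. Transketolase Tkt was at -0.20 ± 0.025 (SE), Pgls at -0.18 ± 0.043, H6pd at 0.30 ± 0.058, and Pgd, the most abundant of the list at 261 FPKM, at 0.13 ± 0.025. The call of Pgls was lost with library size alone (-0.07, adjusted p = 0.199) and with FPKM, and that of Tkt with FPKM (-0.08, adjusted p = 0.0705 on FPKM + 0.1). In the folate cycle, which supplies the formyl groups that Gart and Atic use, 2 of 11 genes fell and 3 rose, against 2 lower and 5 higher with library size alone. The cytosolic Mthfd1 was at -0.22 ± 0.041 (SE) and the mitochondrial Mthfd1l at -0.38 ± 0.033, whereas Mthfd2 and Aldh1l2, both mitochondrial, were at 0.58 ± 0.048 and 0.69 ± 0.042. Shmt2, the most abundant gene of the folate list at 154 FPKM, did not pass with TMM (0.05 ± 0.035). It was called higher in 5 alternatives, and its adjusted p ranged from 0.000592 to 0.511 over all alternatives. The call of Mthfd1 was lost with FPKM (-0.11, adjusted p = 0.0799 on FPKM + 0.1).

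Of 11 genes that handle glutamine and aspartate, 7 were lower and 3 higher, against 4 and 3 with library size alone (all tested genes: 28.8% and 28.2%, and 17.6% and 42.8%). The mitochondrial aspartate carriers Slc25a12 and Slc25a13 fell, with log2 fold changes of -0.49 ± 0.046 and -0.34 ± 0.046 (SE). Asparagine synthetase Asns and glutamine synthetase Glul rose, with 0.60 ± 0.044 and 0.45 ± 0.060 (SE). The amino acid transporter Slc38a2, the most abundant of the list, was at -0.10 ± 0.025 (SE) with TMM and at 0.02 with library size alone.

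In purine salvage, 8 of 12 tested genes were lower and 3 higher with TMM (28.8% and 28.2% of all tested genes), and 5 lower and 3 higher with library size alone (17.6% and 42.8%). Gmpr2, which returns guanine to inosine nucleotides, was at -0.35 ± 0.068 (SE), the adenylate deaminase Ampd2 at -0.34 ± 0.030, and Aprt, which salvages adenine and was the most abundant of the list at 147 FPKM, at -0.20 ± 0.041. The call of Aprt was lost with library size alone (-0.08, adjusted p = 0.0997) and with FPKM, and that of Gmpr2 with FPKM (-0.19, adjusted p = 0.0609 on FPKM + 0.1). The mitochondrial deoxyguanosine kinase Dguok and the GMP reductase Gmpr rose (0.72 ± 0.098 and 0.43 ± 0.080, SE). Ampd1, the form of skeletal muscle, had 0 counts in all libraries. The list median was -0.18, against 0.01 for all tested genes. Of 7 tested genes of pyrimidine salvage, 2 were lower and 1 higher, against 2 and 2 with library size alone. Uridine-cytidine kinase Uck2, the most abundant at 202 FPKM, fell from 435 to 334 CPM (log2 fold change -0.38 ± 0.026, SE), and thymidine kinase Tk1 fell by 0.44 on the log2 scale (SE 0.060). Uck1 was higher (0.14 ± 0.056, SE, adjusted p = 0.0395), a call lost with DESeq2, with no filter and without any of control replicates 1, 2 and 4 or tranilast replicates 2 and 3, where the adjusted p ranged from 0.0682 to 0.0997 (0.000667 to 0.0997 over all alternatives).

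Downstream of the enzymes, 6 of 15 nucleotide kinases were lower and 2 higher (28.8% and 28.2% of all tested genes), against 5 and 4 with library size alone (17.6% and 42.8%). The mitochondrial adenylate kinase Ak4 fell from 261 to 131 CPM (log2 fold change -0.996 ± 0.032, SE). Ak1 was higher at low counts, between 13 and 88 per library (1.32 ± 0.25, SE), and Nme7 was also higher (0.36 ± 0.088, SE). Nme2, the most abundant kinase at 167 FPKM, was at -0.11 ± 0.040 (SE) with TMM and at 0.01 with library size alone. Its call was lost without control replicate 2 (adjusted p = 0.0825) or 4 (0.0753), or without tranilast replicate 1 (0.0546), 2 (0.0802) or 3 (0.0996). All 6 genes of deoxynucleotide synthesis were called with TMM, 3 lower and 3 higher, against 2 and 3 with library size alone. The subunits of ribonucleotide reductase went in opposite directions, with the large subunit Rrm1 at -0.45 ± 0.027 (SE), Rrm2, the most abundant of the list at 123 FPKM, at 0.26 ± 0.033, and Rrm2b, a target of p53, at 0.43 ± 0.087. The dUTP-cleaving enzyme Dut fell (-0.24 ± 0.046, SE).

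Of 8 tested genes of nucleotide breakdown, 2 were lower and 1 higher, against 1 and 2 with library size alone. Samhd1, which cleaves deoxynucleotides and was the most abundant of the list, was at -0.30 ± 0.065 (SE), Nt5c3 at -0.21 ± 0.073 and the guanine deaminase Gda at 0.72 ± 0.11. The call of Nt5c3 was lost with library size alone (-0.09, adjusted p = 0.288), with upper-quartile factors (-0.14, adjusted p = 0.105) and with FPKM (-0.10, adjusted p = 0.255 on FPKM + 0.1). It was also lost without control replicate 2 (adjusted p = 0.0512) or 3 (0.0709), or without tranilast replicate 2 (0.0713) or 4 (0.0647). Uox and Upb1, which in mice are enzymes of the liver, had 0 counts in all libraries. Of 4 tested nucleoside transporters, 0 were lower and 1 higher with library size alone, and with TMM 1 was lower, Slc29a1 (-0.14 ± 0.051, SE), and this call was lost with library size alone (adjusted p = 0.687), without control replicate 1 (0.0797) or 4 (0.0581) and without tranilast replicate 1 (0.0704) or 3 (0.0908). Slc28a1 and Slc28a3 had 0 counts.

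The Myc network, whose factors bind CACGTG, had 5 of 11 tested genes lower and 3 higher with TMM, and 2 lower and 4 higher with library size alone. Mycn was the most abundant of them at 298 FPKM and was at -0.09 ± 0.023 (SE) with TMM and 0.03 with library size alone, while Myc had between 7 and 45 counts per library and was lower (-1.62 ± 0.31, SE). Their partner Max fell (-0.31 ± 0.044, SE), and Mxd4 and Mxd1, which pair with Max in place of Myc, rose (1.86 ± 0.083 and 0.45 ± 0.12, SE), whereas Mxi1, of the same family, was lower with TMM (-0.16 ± 0.037, SE) but not called with library size alone, and Mxd3 did not pass (-0.37 ± 0.195, SE). Any part of these factors in the values of the enzymes was not tested. Of 15 proliferation genes, 10 were lower and 1 higher with TMM, and 8 lower and 5 higher with library size alone. Plk1 and Ccnb1 had the lowest values, at -2.58 ± 0.052 and -1.95 ± 0.044 (SE), and Mcm4 was the gene called higher with TMM (0.11 ± 0.031, SE). Pcna, the most abundant of the list at 330.3 FPKM, did not pass with TMM (0.02 ± 0.029). It was called higher in 4 alternatives, and its adjusted p ranged from 0.000374 to 0.944 over all alternatives.

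**Figure D5:**
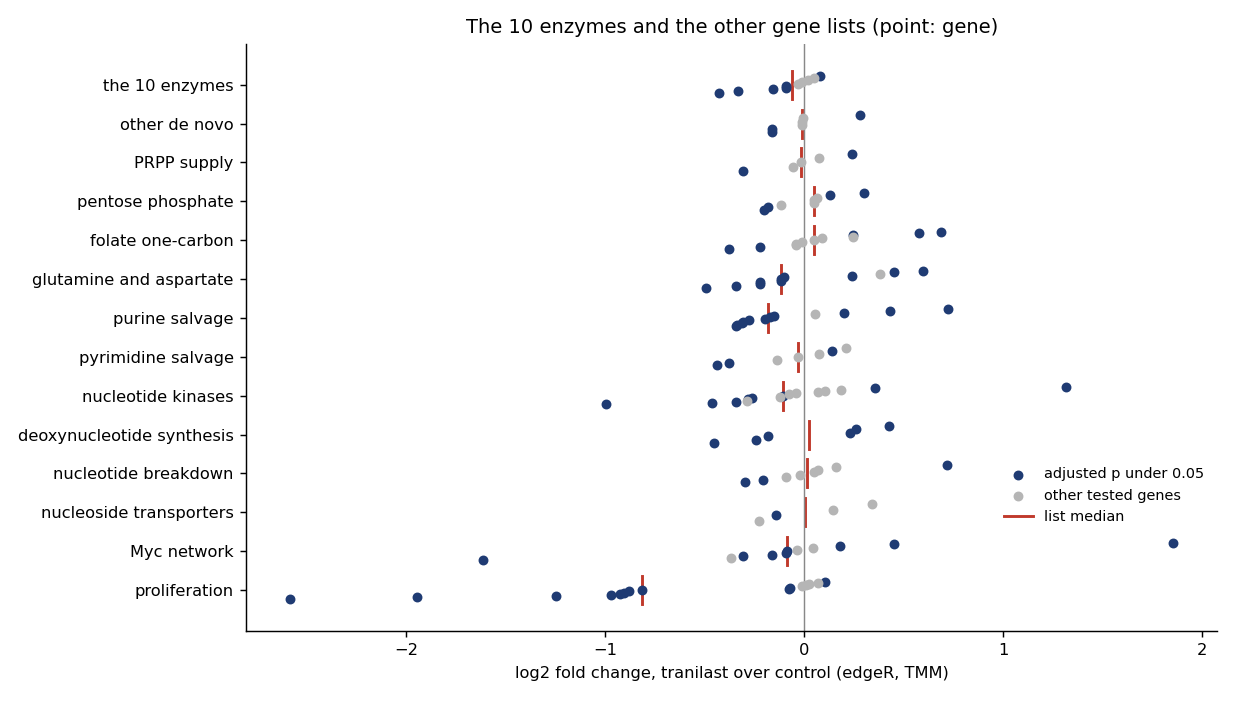
Log2 fold change of every tested gene, tranilast over control, for the 10 enzymes and the other lists, with called genes in blue, other tested genes in grey and a red line at each list median. The enzymes lie between -0.43 and 0.08, the other de novo enzymes between -0.16 and 0.28, the nucleotide kinases between -0.996 and 1.32 and the proliferation genes, whose median was -0.82, between -2.58 and 0.11.

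The KEGG pathways in the deposited annotation gave a wider view, chosen after seeing the data. Of 81 tested genes in purine metabolism, 29 were lower and 18 higher (35.8% and 22.2%, against 28.8% and 28.2% of all tested genes), with a median log2 fold change of -0.03. Of 41 tested genes in pyrimidine metabolism, 13 were lower and 7 higher (31.7% and 17.1%), with a median of -0.04. With library size alone these counts were 15 lower and 31 higher for purine and 8 lower and 12 higher for pyrimidine metabolism, against 17.6% lower and 42.8% higher over all tested genes.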

How the data were processed

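The authors deposited, for 22063 mouse genes in 8 libraries, an estimated count, not always whole, and an FPKM value scaled for transcript length and depth. The study's methods name poly-A enriched paired-end libraries. The aligner, counting tool and genome build were not given in the sources used here. Estimated counts were rounded, 10770 genes passed edgeR's default filter, and libraries were scaled by TMM (factors 0.956 to 1.045) and tested with edgeR 4.0.16 (quasi-likelihood test, Benjamini-Hochberg adjustment over all tested genes). An exact permutation test, two-sided, was applied to log2 CPM (0.1 added) of single enzymes and to log2 ratios of counts (0.5 added). Alternatives were other scalings, DESeq2 1.42.0, limma 3.58.1 (voom, or trend on log2 of FPKM + 1 or + 0.1), other filters and thresholds, blocks by replicate number, leaving out each library, and removal of GC and length trends. R 4.3.3 and Python 3.11.15 were used, and simulated data served to test the code. Coordinates are from GENCODE M21 (GRCm38), matched by identifier, and promoters from RefSeq. Named genes were the enzymes, the genes of the pairs and, from each list, up to 2 called genes with the largest change in each direction, the most abundant gene by FPKM and genes at 0 counts. Not every gene that this rule gives is printed, and genes beyond it were named after their values were seen. The members and lists were chosen with earlier results of these data known. Library precision follows from totals of 12053036 to 15618789 counts.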

Additional observations from a re-analysis of the deposited data

Results flagged for a closer look

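In control replicate 1, Adsl had a log2 CPM of 6.78, below the other control libraries, which lay between 6.89 and 6.90. Its gap to them exceeded Dixon's 95% critical value for 4 samples. Of 30 groups of enzyme values and ratios examined, 1 stood out in this way. Without this library the log2 fold change of Adsl was -0.06 (adjusted p = 0.253 in edgeR), against -0.03 with it, and its adjusted p over all alternatives ranged from 0.0854 to 0.952.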

How the results depend on the processing

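Of the 18 alternative fits, all called Atic and Pfas lower, with log2 fold changes between -0.48 and -0.31 for Atic and between -0.37 and -0.21 for Pfas with the GC and length correction included. Calls of the smaller changes depended on scaling, whose cause was not tested. With library size alone, FPKM + 0.1 and FPKM + 1, 2 enzymes were called lower in each, and 4, 5 and 5 were called higher. Upper-quartile factors gave 3 called lower and 2 higher. Of all tested genes, 5622 were called with FPKM + 0.1 and 5618 with FPKM + 1, 70.4% and 70.5% of them higher. With upper-quartile factors 6203 genes were called, 62.6% of them higher. No filter left 0 called higher, as did an adjusted p under 0.01, and thresholds of 1.5 on the fold change or its log2 left 0 called either way. Over all genes these fold thresholds left 1252 and 120 called. With a library left out, 4 to 5 enzymes were called lower, 0 to 1 higher, and 5694 to 5909 genes called.

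The median of the enzymes was 0.0554 with library size alone, 0.0857 with FPKM + 0.1, 0.0845 with FPKM + 1, 0.00594 with upper-quartile factors and -0.107 with GC and length trends removed. Signs turned with library size alone, FPKM + 0.1 and FPKM + 1 for Gart (0.0233, 0.00526, 0.00519), Adsl (0.0861, 0.0694, 0.0685), Cad (0.0247, 0.111, 0.109), Ctps (0.103, 0.102, 0.1004), Slc38a2 (0.0169, 0.0168, 0.0167), Mycn (0.0291, 0.0286, 0.0285) and Dhodh (0.104, 0.116, 0.108), and with library size alone for Nme2 (0.0104) and Ctps2 (0.111). They turned with upper-quartile factors for Adsl (0.0366), Ctps (0.0535), Ctps2 (0.0615) and Dhodh (0.0552), and for Umps with GC and length trends removed (-0.0178). With a library left out, values that were not called ranged from -0.0599 to 0.00368 for Adsl, from -0.0308 to 0.000479 for Ctps, from -0.00266 to 0.0382 for Pcna, from -0.0605 to 0.0359 for Ctps2 and from -0.0562 to 0.0598 for Dhodh.

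The difference in the log2 ratio of Ctps to Ctps2 was 0.154 with FPKM, against -0.01 with counts. Among the other lists, the count of pyrimidine salvage genes called higher moved most often, in 12 of 18 alternatives, between 0 and 3. Same-numbered libraries did not deviate together (correlations over 7823 genes of -0.059, -0.198, 0.039 and 0.239, and 1 of 4 controls correlated best with its own number), so the numbers were not taken as pairs. With the replicate block, 6009 genes were called, 5 enzymes lower and 1 higher. Depth limits genes at 0 counts to at most 0.249 CPM.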
